A study of Macaca mulatta with 8 samples.

Results

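The genes described here are 9 interferon-stimulated genes, MX1, MX2, ISG15, IFI6, IFI27, OAS1, OAS2, IRF7 and LY6E, chosen by symbol from the 16429 genes of the deposited table, in which all 9 were found. Cells that sense interferon switch on such genes through a shared route: type I interferons bind the receptor chains IFNAR1 and IFNAR2, the kinases JAK1 and TYK2 are activated, and a transcription factor complex that holds IRF9 enters the nucleus and drives transcription. In humans and mice the products block viral entry, replication and release, and T cells carry the receptor and respond as most nucleated cells do. Regulatory T cells (Tregs), which hold other immune cells in check, are among the responders, and these genes are widely used as a readout of recent interferon exposure.

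The study followed Tregs after adoptive transfer into rhesus macaques by droplet-based single-cell RNA sequencing of blood. CFSE, a dye that cells dilute as they divide, marks the first sort, and reading these CFSE-positive cells as the transferred ones rests on the title of the series. A further sort, CD25high CD127low, shows the Treg surface phenotype and is titled Endo in the labels. Another sort, CD127-positive CD25-positive, carries both receptors, and a CD127-positive CD25-negative sort shows the phenotype of conventional CD4 T cells. Each of the 4 sorts gave 1 library on day 20 and 1 on day 3. All 8 libraries came from frozen blood mononuclear cells that were thawed on 1 day and enriched for CD4-positive cells. The labels name no animal, treatment, age or genotype behind a library, nor how the transferred cells were prepared. Since a group is 1 library, without replicates, no test was made, so each difference below compares 2 libraries, and every 95% interval covers counting error only.

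The libraries held 1149 to 4751 cells, 25397 in all, with median depths of 2131 to 3095 UMIs (counted RNA molecules) per cell. Of 25012 cell barcodes, 382 occurred in more than 1 library. FOXP3, the defining Treg factor, stood at 127 CPM (the UMIs of a gene per 1000000 UMIs of a library) in CFSE-positive cells, 67.8 in CD25high CD127low cells, 16.9 in CD127-positive CD25-positive cells and 0.246 in CD127-positive CD25-negative cells on day 20. On day 3 it stood at 259, 76.0, 17.3 and 0.530 CPM in the same order, so FOXP3 was ordered as the sort names say. Summed red cell markers were at 127 to 148 CPM in the libraries of day 20 and at 308 to 1561 CPM in those of day 3. Monocyte markers, mostly CST3, reached their highest sums in CFSE-positive cells (72.5 CPM on day 20, 145 CPM on day 3; 12.8 to 60.8 CPM in the other 6 libraries), and the defining monocyte genes CD14 and LYZ were at 16.6 CPM or less everywhere. A list for plasmacytoid dendritic cells, which make most type I interferon, summed to 763 CPM on day 20 and 692 on day 3 in CD127-positive CD25-negative cells, nearly all of it the cytotoxic protease gene GZMB (742 and 683 CPM), and to 14.0 to 53.2 CPM in the other 6 libraries. Of its 5 genes CLEC4C was at 0.123 CPM or less everywhere, and IRF8 was highest in CD127-positive CD25-negative cells, at 13.0 and 5.17 CPM. NK cell markers summed to 243 and 267 CPM in the same sort, against 12.7 to 34.5 CPM in the other 6 libraries, and B cell markers to 17.0 to 106 CPM. Leaving out cells with markers of red cells, B cells, monocytes or platelets, or with high UMI totals, kept all 8 calls reported here, and the part of plasmacytoid and NK marker cells was not tested.

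Summed over the 9 genes, the level was 716 CPM (95% interval 686 to 747) in CFSE-positive cells, 884 (861 to 907) in CD25high CD127low cells, 706 (690 to 723) in CD127-positive CD25-positive cells and 505 (490 to 521) in CD127-positive CD25-negative cells on day 20. On day 3 the sum was 432 CPM (421 to 444) in CFSE-positive cells, 692 (676 to 708) in CD25high CD127low cells, 518 (503 to 533) in CD127-positive CD25-positive cells and 451 (436 to 466) in CD127-positive CD25-negative cells. CD25high CD127low cells thus had the highest sum on each day, and on day 3 the CFSE-positive library had the lowest of all 8, with an interval that overlapped that of CD127-positive CD25-negative cells. In the authors' annotation, described below, 1356 CD25high CD127low cells of day 20 were of the conventional class (Tconv) and 938 of the endoTreg class. On day 3 these were 2037 and 1301 cells. The sum of this sort is therefore not that of endogenous Tregs alone. Single members departed from the order of the sum, and each is given in turn.

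MX1 and MX2 encode dynamin-like GTPases that trap incoming viruses. On day 20 the level of MX1 was 32.1 CPM in CFSE-positive cells, 79.9 in CD25high CD127low cells, 86.7 in CD127-positive CD25-positive cells and 55.9 in CD127-positive CD25-negative cells. The day 3 levels of MX1 were 19.8, 73.6, 66.1 and 46.0 CPM in the same 4 sorts. The 2 CFSE-positive libraries lay below the other 6, and their intervals, 26.0 to 39.2 CPM on day 20 and 17.4 to 22.5 CPM on day 3, ended under the lowest bound of the others, 41.3 CPM. MX2, at lower counts, had the same order at its low end. It stood at 12.0 CPM in CFSE-positive cells, 38.5 in CD25high CD127low cells, 36.9 in CD127-positive CD25-positive cells and 30.1 in CD127-positive CD25-negative cells on day 20, and at 6.01, 27.1, 33.6 and 21.9 CPM on day 3. Again the CFSE-positive libraries lay below all others and apart from each other. The 6 others overlapped with their neighbours in the order of levels, though the highest and lowest of them did not overlap.

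IFI6 and IFI27 encode small membrane proteins of 1 family that act in apoptosis and viral replication. IFI6 showed the widest spread of the 8 members with more than 100 UMIs, 10.5-fold between its highest and lowest library. It was at 147 CPM in CFSE-positive cells, 284 in CD25high CD127low cells, 167 in CD127-positive CD25-positive cells and 131 in CD127-positive CD25-negative cells on day 20, and at 27.0, 163, 125 and 158 CPM on day 3. A single library, CFSE-positive on day 3, stood far below the rest, with 328 UMIs of the gene in 12149559. IFI27 had another order. Its day 20 level was 294 CPM in CFSE-positive cells, 201 in CD25high CD127low cells, 178 in CD127-positive CD25-positive cells and 111 in CD127-positive CD25-negative cells, and on day 3 the levels were 168, 164, 113 and 88.6 CPM. Its highest library was thus the CFSE-positive one of day 20, and on day 3 the CFSE-positive and CD25high CD127low libraries overlapped at the head of the order.

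ISG15 encodes a ubiquitin-like protein that is joined to other proteins and also secreted. Its level was 132 CPM in CFSE-positive cells, 164 in CD25high CD127low cells, 147 in CD127-positive CD25-positive cells and 98.2 in CD127-positive CD25-negative cells on day 20, against 106, 159, 103 and 67.3 CPM on day 3. The CD127-positive CD25-negative library was the lowest of its day both times. OAS1 and OAS2 encode synthetases that answer double-stranded RNA by making the messenger that activates RNase L. For OAS1 the day 20 levels were 42.1 CPM in CFSE-positive cells, 44.1 in CD25high CD127low cells, 30.1 in CD127-positive CD25-positive cells and 24.3 in CD127-positive CD25-negative cells, and the day 3 levels were 53.5, 41.5, 28.5 and 24.5 CPM. Here the CFSE-positive library of day 3 was the highest of the 8. OAS2 was at 34.4 CPM in CFSE-positive cells, 35.1 in CD25high CD127low cells, 30.9 in CD127-positive CD25-positive cells and 23.2 in CD127-positive CD25-negative cells on day 20, and at 34.0, 33.0, 24.9 and 21.5 CPM on day 3. It had the narrowest range of the 9, 1.64-fold, and its neighbours in the order of levels overlapped throughout. Its highest and lowest libraries did not overlap (30.7 to 39.9 against 18.3 to 25.1 CPM).

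IRF7, the transcription factor that amplifies type I interferon production, was at 22.1 CPM in CFSE-positive cells, 34.7 in CD25high CD127low cells, 28.9 in CD127-positive CD25-positive cells and 30.4 in CD127-positive CD25-negative cells on day 20, and at 17.3, 28.7, 23.0 and 21.1 CPM on day 3. The CFSE-positive library was the lowest of its day both times, with neighbours overlapping along the whole order. LY6E, a lipid-anchored surface protein that limits the entry of coronaviruses, was barely detected, with 99 UMIs in 97 of 25397 cells and 0.668 to 2.58 CPM. At these counts no difference in LY6E between libraries was detectable.

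**Figure D1:**
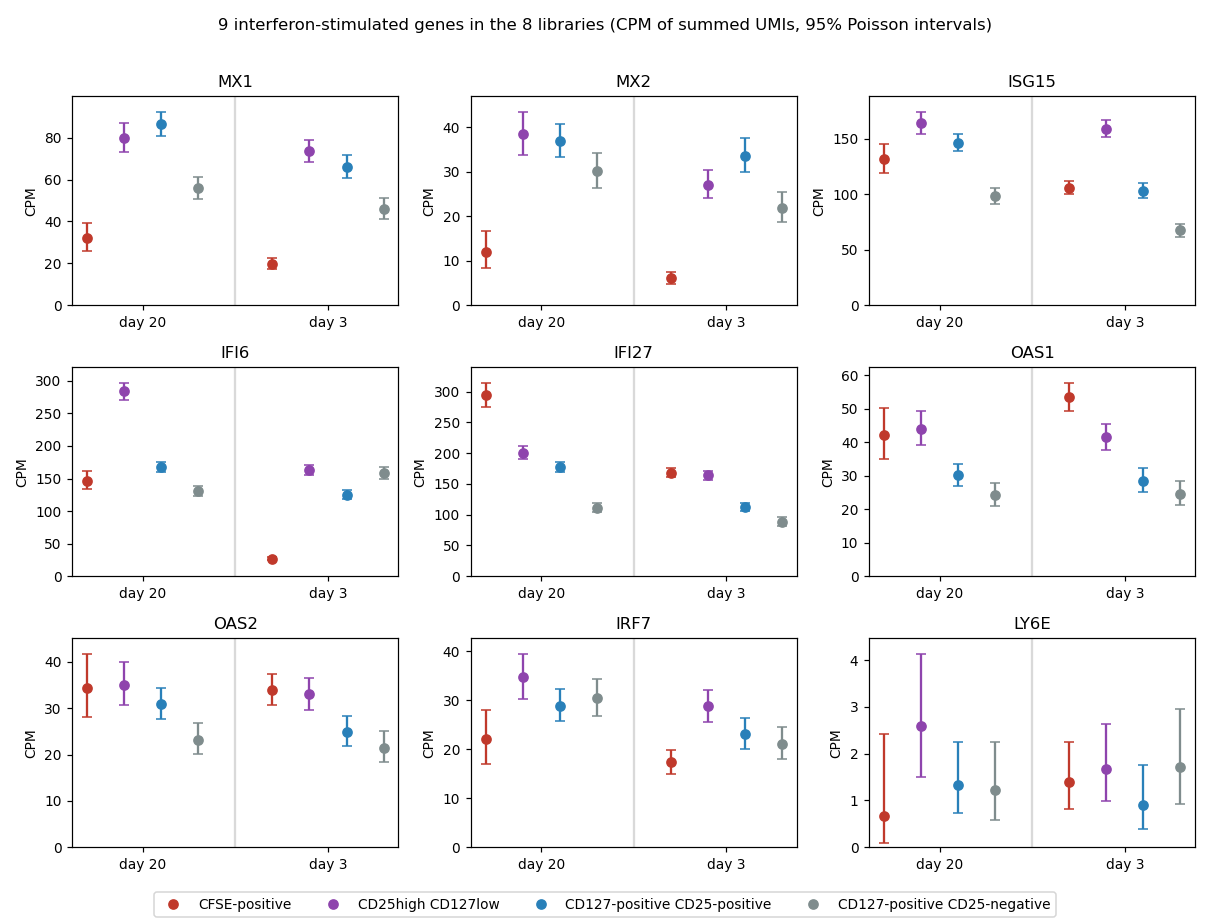
Level of each of the 9 genes in the 8 libraries, in CPM of summed UMIs with 95% Poisson intervals, day 20 left of day 3 and the sorts in the order of the legend. MX1, MX2 and IFI6 of day 3 are lowest in CFSE-positive cells, whereas OAS1 of day 3 and IFI27 of day 20 are highest there.

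Setting CFSE-positive against CD25high CD127low cells asks how the dye-marked cells differed from the other sort with a Treg surface phenotype on the same day. By the authors' classes the CD25high CD127low sort held more Tconv than endoTreg cells. In the CFSE-positive libraries 1064 of 1149 cells of day 20 and 4079 of 4142 of day 3 were transTreg. The ratios by sort are thus not between Tregs alone. A gene was called where the ratio of CPM + 10 was at least 2-fold and 1 of the 2 libraries had at least 50 CPM. MX1 was lower in CFSE-positive cells on day 20 (log2 ratio -1.10, plain ratio interval -1.65 to -1.0). It was the 1 member called of the 4 that passed the 50 CPM filter, while 2.19% of the 1963 genes tested were called lower and 0.458% higher. On day 3 MX1 (log2 ratio -1.49) and IFI6 (-2.23) were lower in CFSE-positive cells, 2 of the 5 members that passed, beside 3.18% of 2199 genes called lower and 6.05% called higher. The plain ratio of IFI6 counts had an interval of -2.77 to -2.42 on the log2 scale, and that of MX1 one of -2.11 to -1.68. MX2 was past 2-fold (log2 ratios -1.14 on day 20 and -1.21 on day 3) but stayed under the 50 CPM filter on both days. ISG15 (-0.30 and -0.55) and IRF7 (-0.48 and -0.51) were not called. IFI27 (0.53 and 0.03), OAS1 (-0.05 and 0.30) and OAS2 (-0.02 and 0.03) were no lower in CFSE-positive cells on day 3 by library totals. With TMM scaling, which centres the ratios on the bulk of the genes, the day 3 ratios of IFI27 and OAS2 turned to -0.28 and -0.22. The median log2 ratio of all genes on day 3 was 0.41 in this comparison, and TMM scaling moved it by -0.30, so a member at 0.03 lay below the typical gene. With that scaling 2.25% of genes were called higher and 5.69% lower on day 3.

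Cells of cluster 10 in the authors' annotation, described below, carry much of the MX1 signal of CD25high CD127low cells. Without them MX1 was at 26.6 CPM in CFSE-positive cells and 39.3 in CD25high CD127low cells on day 20, while its day 3 levels were 13.8 and 41.8 CPM, with no library at 50 CPM and hence no call. Its log2 ratio was then -0.43 on day 20 and -1.12 on day 3. In the authors' matching classes, described below, MX1 was likewise under the filter and not called (-0.56 and -1.22). IFI6 remained called on day 3 (24.3 CPM in CFSE-positive cells and 119 in CD25high CD127low cells, log2 ratio -1.91). Without cluster 10 the ratio of ISG15 had the opposite sign, 0.65 on day 20 and 0.23 on day 3, as had those of OAS1 (0.21) and OAS2 (0.11) on day 20. Cluster 10 may have been built with these members, which the authors flag for ordering cells. It held 63.3% of the ISG15 UMIs of CD25high CD127low cells and 20.8% of those of CFSE-positive cells on day 20. On day 3 it held 62.4% and 29.0%. Leaving it out removes more of the signal from 1 side, so the lost calls and changed signs follow in part by construction.

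Against CD127-positive CD25-negative cells, the conventional phenotype, 1 member was called on each day. On day 20 IFI27 was higher in CFSE-positive cells (log2 ratio 1.33, plain ratio interval 1.27 to 1.54). It was 1 of the 4 members that passed the filter, with 1.95% of 1953 genes called higher and 2.2% called lower. On day 3 IFI6 was lower in CFSE-positive cells (log2 ratio -2.18), again 1 of 4, with 14.3% of 2263 genes called higher and 7.29% called lower. The all-gene median of that day was 0.52, and with TMM scaling, which moved it by -0.32, 5.23% of genes were called higher and 12.0% lower, with the same member call. On day 20 TMM scaling gave 1.06% higher and 2.81% lower. OAS1 (0.60 on day 20 and 0.88 on day 3) and ISG15 (0.39 and 0.58) lay on the side of CFSE-positive cells without a call, and MX1 (-0.65 and -0.91) and MX2 (-0.86 and -0.99) on the other side. Without cluster 10, ISG15 was called higher in CFSE-positive cells on both days (day 20, 105 CPM against 34.5; day 3, 75.4 CPM against 24.4), IFI27 also on day 3 (153 CPM against 58.2), and the calls of IFI27 on day 20 and IFI6 on day 3 remained. Of all genes, 1.95% were then called higher and 2.20% lower on day 20, and 14.4% and 7.24% on day 3. The authors flag ISG15 and IFI27 for ordering cells, so cluster 10 may have been built with them. Leaving cluster 10 out removes a larger share of the cells rich in these genes from CD127-positive CD25-negative than from CFSE-positive libraries (cell counts below).

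CD25high CD127low cells set against CD127-positive CD25-negative cells had positive log2 ratios for each of the 8 better detected members on both days, from 0.04 to 1.13. Called were IFI6 on day 20 (log2 ratio 1.06, 1 of 4 members that passed, with 1.44% of genes called higher and 0.694% lower) and ISG15 on day 3 (1.13, 1 of 4, with 1.5% higher and 2.01% lower). IFI6 on day 20 lost its call with TMM scaling (0 of the members called). In the authors' matching classes, endoTreg over Tconv cells, both calls were lost, at 0.89 for IFI6 on day 20 and 0.36 for ISG15 on day 3. IFI27 was called there instead on day 20 (1.21), beside 3.20% of all genes called higher and 1.22% lower. With all cells of the sorts, IFI27 reached 0.80 on day 20 and 0.82 on day 3, below the 2-fold rule both times. The day 3 ratio of IFI6 was -0.20 in those classes and -0.01 without cluster 10. The day 20 ratio of ISG15 was -0.25 in those classes, and the ratio of MX1 was -0.24 on day 20 and -0.03 on day 3. Cluster 10 lies wholly in the Tconv class, so those classes keep its cells on the CD127-positive CD25-negative side alone. The lost calls and negative ratios follow in part by construction. With cluster 10 left out of those classes too, both calls were kept, and ISG15 on day 20 and IFI27 on both days were added. That choice takes cells rich in the members from the Tconv side alone. No all-gene share is given for it, so these calls are no result about the members. In CD127-positive CD25-positive against CD127-positive CD25-negative cells 0 of 4 members that passed were called on either day, beside 0.22% higher and 0.606% lower of all genes on day 20 and 0.176% and 0.822% on day 3. MX1 (0.55 on day 20 and 0.44 on day 3) and ISG15 (0.53 and 0.55) lay on the side of CD127-positive CD25-positive cells there. The comparisons with CD127-positive CD25-negative cells share that library on each day, and those with CD25high CD127low cells share that one.

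**Figure D2:**
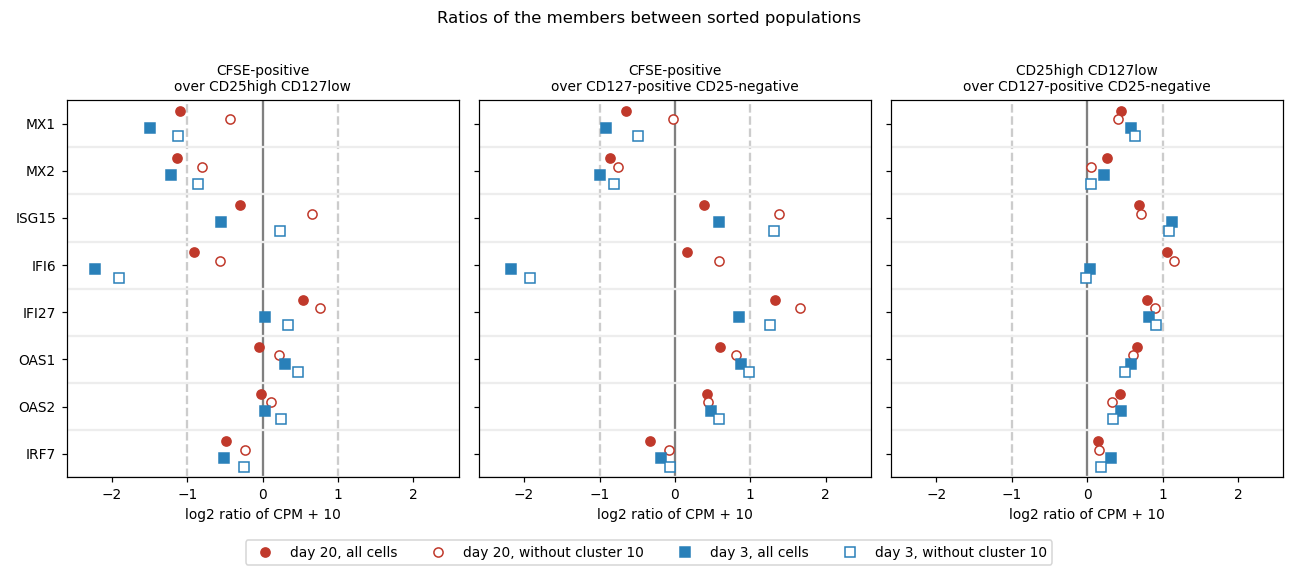
Log2 ratios of CPM + 10 for 8 of the 9 members between sorted populations, circles for day 20 and squares for day 3, filled for all cells and open without the authors' cluster 10. Dashed lines mark 2-fold. IFI6 on day 3 lies far to the left in both comparisons of CFSE-positive cells, with and without cluster 10.

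Between the days, IFI6 in CFSE-positive cells stood out, at 147 CPM on day 20 against 27.0 on day 3 (log2 ratio 2.08, plain ratio interval 2.23 to 2.65). It was the 1 member called of 4 that passed, beside 4.09% of 2227 genes called higher on day 20 and 3.1% called lower. With TMM scaling those shares were 5.53% and 1.83%, and IFI6 kept its call. IFI27 (0.78), MX1 (0.50), MX2 (0.46) and ISG15 (0.30) also had higher levels on day 20 without a call, OAS1 (-0.29) a lower one, while the all-gene median was -0.33. In CD25high CD127low cells IFI6 was at 284 CPM on day 20 and 163 on day 3 (log2 ratio 0.76, 0 of 4 members called, with 2.54% of genes higher and 0.324% lower). In CD127-positive CD25-positive cells 0 of 4 were called (0% higher and 0.112% lower of all genes), and in CD127-positive CD25-negative cells 0 of 4 (0.0572% higher and 0.114% lower). IFI6 was at 131 CPM on day 20 and 158 on day 3 in CD127-positive CD25-negative cells, the opposite direction (log2 ratio -0.26) to the other 3 sorts. The CFSE-positive cells of the 2 days lay in different clusters, 88.6% of them in cluster 2 on day 20 and 98.3% in cluster 1 on day 3, so the day and this makeup cannot be told apart. Among cells with a finer name, transferred_Naive_Tregs had 123 CPM of IFI6 on day 20 (1049 cells, 110 to 137) and 37.8 on day 3 (136 cells, 20.1 to 64.6). The transferred_inTransition cells had 72.9 CPM on day 20 (64 cells, 37.7 to 127) and 23.2 CPM on day 3 (2699 cells, 19.95 to 26.75). The group of 136 cells rested on 13 UMIs of IFI6 and that of 64 cells on 12.

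The authors' annotation places each cell in 1 of 10 clusters and 1 of 3 classes, named transTreg, endoTreg and Tconv. Their gene table flags 3052 genes for ordering the cells, among them 8 of the 9 members (all but LY6E), so the levels of these members by cluster are a description and not a finding. Cluster 10 collected the interferon-stimulated signal. Its 937 cells were 3.69% of all cells and held 35.0% of the UMIs of the 9 genes, with 56.5% of ISG15, 49.3% of MX1, 46.9% of MX2, 29.9% of IFI6, 24.1% of IFI27, 23.2% of IRF7, 21.0% of OAS2, 19.5% of OAS1 and 6.06% of LY6E. The summed level in cluster 10 was 5744 CPM on day 20 and 5280 CPM on day 3. Clusters 2 to 9 had 207 to 1005 CPM. Cluster 1 differed by day, with 4806 CPM in its 53 cells of day 20 and 372 CPM in its 4076 cells of day 3, of which 4071 were CFSE-positive. Of the 53 cells, 46 came from the CFSE-positive library. Their sum on day 20 was carried by IFI27 (1918 CPM), ISG15 (1213 CPM) and IFI6 (917 CPM), whereas MX1 was at 334 CPM.

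**Figure D3:**
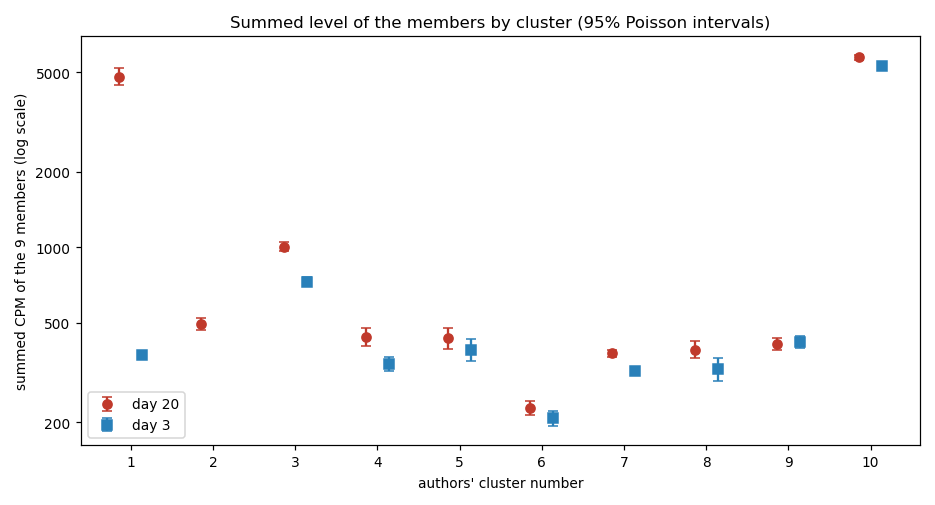
Summed level of the 9 members in each of the authors' 10 clusters, in CPM on a log scale with 95% Poisson intervals, for day 20 and day 3. Cluster 10 on both days and cluster 1 on day 20 lie at 4806 CPM or more and the rest at 1005 CPM or less; groups under 50 cells are not drawn.

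Every library contributed to cluster 10, 9 and 23 cells from the CFSE-positive libraries of day 20 and day 3 and 97 to 250 from each of the other 6. Among those 6 the summed level within the cluster lay between 4286 CPM (CD127-positive CD25-positive, day 3) and 6955 CPM (CD25high CD127low, day 20). The authors class cluster 10 as Tconv in every library, yet FOXP3 in it followed the sort. Cells of cluster 10 from the CD25high CD127low libraries had 47.9 CPM of FOXP3 on day 20 (26.8 to 78.9) and 56.4 on day 3 (37.7 to 80.9). Those from CD127-positive CD25-positive libraries had 5.32 and 7.10 CPM, and those from CD127-positive CD25-negative libraries had 0 UMIs on both days, with upper bounds of 9.98 CPM on day 20 and 13.4 on day 3. Among the other clusters of the same libraries, CD25high CD127low cells in cluster 7, another Tconv cluster, had 15.3 CPM of FOXP3 on day 20 and 16.6 on day 3, and those in cluster 3, an endoTreg cluster, 198 and 226 CPM. The intervals of cluster 10 overlapped on day 20 with those of cluster 6, a Tconv cluster (56.2 CPM, 32.1 to 91.2), and cluster 4, an endoTreg cluster (59.7 CPM, 46.3 to 75.9). On day 3 cluster 6 had 21.1 CPM (9.12 to 41.6) and cluster 4 had 105 CPM (92.5 to 119).

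By class, the members of transTreg cells in the CFSE-positive libraries summed to 670 CPM on day 20 and 370 on day 3. The endoTreg cells of the CD25high CD127low libraries summed to 770 CPM on day 20 and 536 on day 3, and the Tconv cells of the CD127-positive CD25-negative libraries, with cluster 10, to 501 and 453 CPM. In the CD25high CD127low libraries the Tconv cells, also with cluster 10, had higher sums than the endoTreg cells, 957 and 797 CPM. Within the transTreg and endoTreg classes, from which cluster 10 is absent, IFI6 of day 3 was at 24.4 CPM in transTreg cells and 137 in endoTreg cells (log2 ratio -2.10), while MX1 was at 13.5 against 44.6 CPM and OAS1 at 50.7 against 44.2 CPM. On day 20 IFI6 stood at 140 CPM in transTreg cells and 248 in endoTreg cells. Against the Tconv class of CD127-positive CD25-negative libraries, with cluster 10 kept, the day 20 level of IFI27 was 297 CPM in transTreg, 263 in endoTreg and 108 in Tconv cells, and its day 3 level was 154, 150 and 90.0 CPM. ISG15 was at 108 CPM in transTreg, 81.8 in endoTreg and 98.9 in Tconv cells on day 20, and at 75.3, 90.2 and 68.0 CPM on day 3. Cluster 10 lies wholly in the Tconv class, so leaving it out takes cells rich in the members from that class alone.

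The finer names, given to 7515 cells, split each Treg class further. The sum was 1058 CPM in endo_Effector_Tregs against 422 in endo_Naive_Tregs on day 20, and 753 against 344 CPM on day 3, with IFI27 at 411 against 95.4 CPM on day 20. On day 20 transferred_Naive_Tregs had 506 CPM and transferred_inTransition 559 CPM. On day 3 transferred_Effector_Tregs had 359 CPM, transferred_inTransition 295 CPM and transferred_Naive_Tregs 305 CPM. In transferred_Effector_Tregs MX1 was at 7.24 CPM and MX2 at 3.02 CPM, but OAS1 at 71.2 CPM, against 57.6, 22.5 and 66.5 CPM in endo_Effector_Tregs of that day. The group named Unk2 had 8208 CPM in its 67 cells of day 3, including 3683 CPM of ISG15, 2388 of IFI27 and 807 of MX1. The flagged ordering genes may have entered the finer names, so the levels by name are likewise a description and not a finding. FOXP3 in the Unk2 cells of day 3 was at 319 CPM (247 to 406) and IL2RA, the interleukin-2 receptor chain also called CD25, at 561 CPM. Most Unk2 cells were CFSE-positive cells of cluster 1 (26 on day 20 and 40 on day 3) or cluster 10 (7 on day 20 and 21 on day 3).

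To count cells at equal depth, each cell was thinned to 1000 UMIs, which left out 29 shallower cells and kept 25368, between 1149 and 4745 a library. At least 1 UMI of any member was then seen in 30.8% of CFSE-positive cells, 32.7% of CD25high CD127low cells, 29.8% of CD127-positive CD25-positive cells and 25.1% of CD127-positive CD25-negative cells on day 20, and in 22.7%, 29.0%, 23.7% and 22.8% on day 3. No population in the files is known to lack these transcripts, so no background share from free RNA could be set beside these. IFI6 had a UMI in 12.5% of thinned CFSE-positive cells of day 20 and 2.30% of day 3 (95% binomial, Clopper-Pearson, 10.7 to 14.6 and 1.87 to 2.81), against 11.6 to 16.8% of CD25high CD127low cells. With all UMIs the IFI6 shares were 20.9% and 6.35% of CFSE-positive cells. MX1 was seen in 2.87% of thinned CFSE-positive cells on day 20 and 1.48% on day 3, while CD25high CD127low cells had 5.68% and 6.54%. For IFI27 the shares were 14.4% and 10.1% of CFSE-positive cells and 8.88% and 7.83% of CD25high CD127low cells.

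Cells with at least 3 of the 9 members made up 4.26% (3.17 to 5.60) of CFSE-positive, 4.61% (3.80 to 5.54) of CD25high CD127low, 3.81% (3.29 to 4.40) of CD127-positive CD25-positive and 3.13% (2.59 to 3.75) of CD127-positive CD25-negative cells on day 20. On day 3 the shares were 1.50% (1.15 to 1.92), 4.09% (3.45 to 4.82), 3.15% (2.55 to 3.85) and 2.01% (1.54 to 2.57). The intervals of the CFSE-positive and CD25high CD127low libraries overlapped on day 20 and not on day 3. With all UMIs the shares were 9.49%, 12.8%, 9.09% and 6.55% on day 20 and 4.37%, 12.2%, 9.52% and 5.57% on day 3, in the same order of sorts. These cells sat in different clusters by sort. In the CFSE-positive libraries, 23 of 49 were in cluster 1, 18 in cluster 2 and 8 in cluster 10 on day 20, and 43 of 62 in cluster 1 and 19 in cluster 10 on day 3. Of the CD25high CD127low cells of day 20 with at least 3 members, 67 of 108 were in cluster 10 and 16 in cluster 3, and of the CD127-positive CD25-negative cells of that day, 83 of 115 were in cluster 10.

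**Figure D4:**
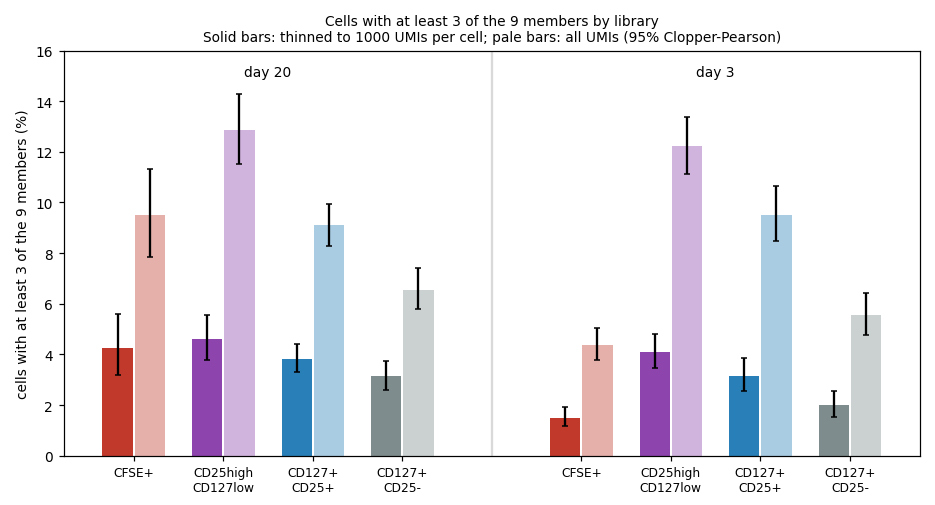
Share of cells with at least 3 of the 9 members in each library, solid bars for cells thinned to 1000 UMIs and pale bars for all UMIs, with 95% Clopper-Pearson intervals. In CFSE-positive cells the thinned share is 4.26% on day 20 and 1.50% on day 3, and the other sorts lie between 2.01 and 4.61%.

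In the 806 thinned cells with at least 3 members, other interferon-stimulated genes were high as well. Of 41 such genes found from a list of 44, 17 reached 20 CPM over all thinned cells, and 16 of the 17 were higher in cells with at least 3 members than in the other cells of their library in 8 of 8 libraries. Of all 3670 genes outside the members at that level, 64, or 1.74%, were higher in 8 of 8. That level counts the cells with at least 3 members too, so a gene can pass through them. The lowest of the 17 in the other cells, TRIM5, was at 20.15 CPM there. IFI44, an interferon-induced cytoplasmic protein, was at 277 CPM in these cells and 27.3 in the rest over all libraries. Among the 17, the next by fold were HELZ2, a transcriptional coactivator, at 122 against 26.7 CPM, and IFI35 at 199 against 48.2 CPM. ISG20, a 3' exonuclease that degrades viral RNA, was at 1333 against 534 CPM, and BST2, the tether that holds budding virions at the cell surface, at 507 against 238 CPM. PARP14 was the exception, higher in 6 of 8 libraries (39.7 against 23.5 CPM).

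Among signalling genes, IRF9 was at 135 CPM in cells with at least 3 members and 85.0 in the rest, higher in 8 of 8 libraries. The kinases JAK1 (197 against 218 CPM) and TYK2 (22.3 against 23.3 CPM) were not. Among the sensors and adaptors IFIH1, the receptor for long double-stranded RNA, was at 81.9 against 18.9 CPM. It reached the 20 CPM filter only through the cells in which it was high, so its difference is a description and not a finding. MAVS, its adaptor, was at 34.7 against 34.5 CPM. TRIM25, a ubiquitin ligase of that route, was at 78.2 against 24.1 CPM in 8 of 8 libraries, while SOCS1, a feedback inhibitor of JAK kinases, was at 50.9 against 65.4 CPM. All 4 genes that passed of the 9 found on an interferon-gamma-linked list, GBP2, PSMB8, PSMB9 and PSMB10, were higher in 8 of 8. The 3 other interferon regulatory factors that passed, IRF1, IRF2 and IRF3, were at 60.8 against 65.1, 64.5 against 57.3 and 179 against 206 CPM.

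FOXP3 in cells with at least 3 members rested on 9 to 19 UMIs a library in the CFSE-positive and CD25high CD127low sorts. In the CD127-positive sorts it had 0 or 1 UMI a library in such cells. It was at 184 CPM (84.0 to 349) in them and 133 (112 to 156) in the rest of the CFSE-positive library of day 20, and at 306 (184 to 479) against 277 (261 to 294) CPM on day 3. In CD25high CD127low cells it was at 102 CPM (50.8 to 182) in them and 71.6 (60.9 to 83.6) in the rest on day 20, with 139 (83.5 to 217) and 68.5 (59.8 to 78.2) CPM on day 3, the only 1 of these 4 libraries without overlap. The summed Treg markers were lower in such cells in the other 3, with overlapping intervals, at 429 against 499 CPM in CFSE-positive cells of day 20, 968 against 1020 CPM in those of day 3 and 306 against 346 CPM in CD25high CD127low cells of day 20. In CD25high CD127low cells of day 3 they were at 686 against 453 CPM. IL2RA followed the same directions, in that order of libraries, at 224 against 328, 548 against 655, 167 against 222 and 489 against 321 CPM. Their median depth was 2102 to 3096 UMIs a cell, against 2131 to 3094 in the rest, and 37 of the 806 met the doublet-like criteria. Summed monocyte markers in them were 0 to 96.8 CPM, with the highest value in CFSE-positive cells of day 3, where the rest had 151 CPM. CD25high CD127low cells of day 3 were the 1 library in which they were higher, 43.8 against 24.0 CPM, and platelet markers were at 0 in such cells of all 8 libraries.

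Pairs of members without LY6E were detected together more often than the product of their shares. Pairs with LY6E rested on few cells and went either way, with 0 cells for OAS1 and LY6E against 1.44 by the product. MX1 and ISG15 occurred in 467 cells, against 76.6 cells by the product (6.09 times), MX1 and MX2 in 180 against 31.0, and IFI6 and IFI27 in 556 against 201. Across the thinned cells of a library, the correlation of MX1 with ISG15 had a median over the 8 libraries of 0.43 (0.29 to 0.51), that of ISG15 with IFI6 0.35, of MX2 with ISG15 0.29, of ISG15 with IFI27 0.26, of IFI6 with IFI27 0.24 and of MX1 with MX2 0.21. The median over all 36 pairs was 0.09 and 0.02 without cluster 10, a level at which sparse counts give no finding. Of the leading pairs, IFI6 with IFI27 was least reduced without that cluster, at 0.18, while MX2 with ISG15 was at 0.03. Cluster 10 holds many of the cells rich in the members and may have been built with most of them. Leaving it out therefore lowers these correlations in part by construction. OAS1 with OAS2 was at 0.07. The cells of a library share its depth and preparation, so these correlations describe the libraries, and no p-value was computed.

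**Figure D5:**
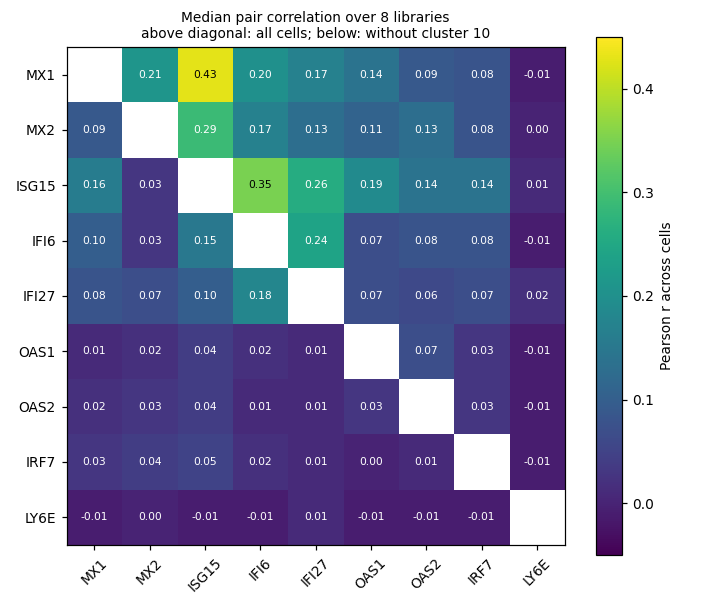
Median over the 8 libraries of the Pearson correlation between pairs of members across thinned cells, all cells above the diagonal and cells outside cluster 10 below it. MX1 with ISG15 is highest at 0.43, and all pairs with LY6E lie between -0.01 and 0.02.

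The 10 named genes most alike to the members, by the mean over the 8 libraries of the correlation across cells with the summed members, were ISG20 (0.17), RNF213 (0.16), BST2 (0.13), NT5C3A (0.12), DHX58 (0.12), TMSB4X (0.11), EPSTI1 (0.11), ifitm1 (0.11, the table's spelling), UBE2L6 (0.11) and SP100 (0.11). They come from 4235 genes with a UMI in at least 1% of cells of every library, whose median was 0.00 and lowest value -0.08, and 14 genes reached 0.1. RNF213 is a giant ubiquitin ligase, DHX58 a helicase of the RIG-I family, TMSB4X an actin-binding peptide, IFITM1 a membrane protein that blocks viral entry and SP100 a component of nuclear bodies. By library, ISG20 was at 611 CPM in CFSE-positive cells, 569 in CD25high CD127low cells, 456 in CD127-positive CD25-positive cells and 346 in CD127-positive CD25-negative cells on day 20, and at 955, 672, 413 and 297 CPM on day 3. BST2 had the same highest sort, CFSE-positive cells, with 330 CPM on day 20 and 428 on day 3, while CD127-positive CD25-negative cells had 205 and 173 CPM. Both thus had their highest library where MX1, MX2 and IFI6 had their lowest.

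At the level of whole libraries the rest of the pathway gave few calls. The transducers STAT2 and IRF9 stood at 8.75 to 14.0 CPM and 67.3 to 103 CPM, and USP18, the protease that removes ISG15 and dampens the receptor, at 4.20 to 9.12 CPM. IRF9, past the filter in every library, had log2 ratios of -0.09 to 0.25 over the 12 comparisons, and the other 2 stayed under the filter. IFNAR1 was at 7.03 to 16.3 CPM and IFNAR2 at 8.48 to 21.1 CPM. Of the 6 interferon ligands listed, 2 were found, IFNG at up to 1.72 CPM and IFNL1 at 0.165 to 5.14 CPM. Of the 41 other interferon-stimulated genes, 8 to 10 passed the 50 CPM filter in a comparison. In CFSE-positive over CD127-positive CD25-negative cells on day 3, 3 of 9 were called higher, ISG20 (log2 ratio 1.65), UBE2L6, the conjugating enzyme for ISG15 (1.38), and BST2 (1.26), beside the 14.3% of all genes. With TMM scaling BST2 lost its call (0.91), while ISG20 (1.30) and UBE2L6 (1.04) kept theirs. Their list had a median of 0.29 there, below the all-gene 0.52. On the same day ISG20 was called in CD25high CD127low over CD127-positive CD25-negative cells (1.15, 1 of 9, beside 1.5% of all genes called higher). SOCS1 was lower on day 20 than on day 3 in CFSE-positive cells, at 24.4 against 98.2 CPM (log2 ratio -1.65, 1 of 2 negative regulators that passed, beside 3.1% of all genes called lower). IFI44, under the filter in most libraries, had the pattern of MX1 and MX2, at 23.1 CPM in CFSE-positive and 53.0 in CD25high CD127low cells on day 20, with 10.6 and 38.5 CPM in them on day 3.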

How the data were processed

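Macaque blood cells were, per the labels' protocols, captured on the 10x platform (3' kit, version 2). Per the submitters' processing notes the authors used Cell Ranger 2.1.1. For settings, genome build and annotation the sources used here give nothing. The deposited values are whole UMI counts per gene and cell, unscaled, and the authors' total equals the column sum for 25397 of 25397 cells. The authors' library, day, cluster, class and finer name of each cell were used as deposited. The 4 sorts and 2 days were taken from the labels, and 0 columns went unused.

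Counts were summed over the cells of a library (2992787 to 12149559 UMIs) and divided by its total. Log2 ratios were taken after adding 10 CPM, so those of low genes are understated. A call needed a 2-fold ratio and 50 CPM in 1 library, with the same rule over all genes as background. Intervals are exact Poisson for counts and Clopper-Pearson for shares, at 95%, and the interval of a plain ratio is the exact conditional one without pseudocount. Groups under 50 cells were left out. Cells were thinned to 1000 UMIs for shares and correlations (Pearson, on log1p counts). No doublet caller was run. In 1 alternative, 1210 doublet-like cells were dropped, which held 3 or more UMIs of markers of red cells, B cells, monocytes or platelets, or over 2 times their library's median UMIs. TMM (edgeR 4.0.16) and median-of-ratios factors (DESeq2 1.42.0) were used for scaling only, and no count model was fitted, since no group had replicates, and sorts were not taken as replicates of a day. Python 3.11.15 with numpy 2.4.6, scipy 1.17.1 and pandas 2.3.3 was used, and the calling rule was tested on simulated data.

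The members and lists were chosen with earlier results of these data known. The text names the 9 members, list genes past 2-fold (at most 5 a list), STAT2, IRF9 and USP18, and the 10 named genes most alike. Genes named for cells with at least 3 members, cell type markers, IFNAR1, IFNAR2, the ligands and IFI44 were chosen after their values were seen. Added after seeing the data were 3 settings: leaving out cluster 10, doing so within the matching classes, and a filter of 20 CPM, which also served for cells with at least 3 members. Sequences were not used here, and 1 gene of the signalling list is not reported here.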

Additional observations from a re-analysis of the deposited data

Results flagged for a closer look

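IFI6 had ratios of opposite sign between groups under the same contrast. Between day 20 and day 3 its log2 ratio was 2.08 in CFSE-positive, 0.76 in CD25high CD127low and 0.39 in CD127-positive CD25-positive cells but -0.26 in CD127-positive CD25-negative cells. Set against CD127-positive CD25-negative cells, CFSE-positive cells had a log2 ratio of 0.16 on day 20 and -2.18 on day 3, and CD127-positive CD25-positive cells one of 0.33 on day 20 and -0.32 on day 3. These ratios share libraries, so a high or low IFI6 value in 1 library, such as that of CD127-positive CD25-negative cells on day 3, enters several of them. The differences between these ratios were not tested, since each group is 1 library. The 8 values are listed because the counting interval of each lay on the other side of 0 from that of another sort or day.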

How the results depend on the processing

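The 12 comparisons gave 8 member calls, and all 8 were kept with median-of-ratios factors, a pseudocount of 1 CPM, no filter, a filter of 20 CPM, library totals thinned to the smallest, or doublet-like cells left out. TMM factors and the mean of per-cell CPM each kept 7, losing IFI6 in CD25high CD127low over CD127-positive CD25-negative cells on day 20 (0 called in place of 1). A pseudocount of 30 CPM kept 5, with 0 called in that comparison, in CFSE-positive over CD25high CD127low cells on day 20 (MX1 lost) and in CD25high CD127low over CD127-positive CD25-negative cells on day 3 (ISG15 lost). A pseudocount of 1 CPM added OAS1 (2 called in CFSE-positive over CD127-positive CD25-negative cells on day 3), and no filter or one of 20 CPM added MX2 in CFSE-positive over CD25high CD127low cells (2 called on day 20). The authors' matching classes kept 4, with 0 called on day 20 and 1 on day 3 in CFSE-positive over CD25high CD127low cells, and 0 on day 3 in CD25high CD127low over CD127-positive CD25-negative cells, where on day 20 IFI27 took the place of IFI6. Leaving out cluster 10 kept 6, with 0 and 1 called in CFSE-positive over CD25high CD127low cells on day 20 and day 3. In CFSE-positive over CD127-positive CD25-negative cells it gave 2 on day 20 and 3 (2 higher, 1 lower) on day 3. The all-gene shares of that comparison without cluster 10 are given above. Matching classes without cluster 10 gave the same counts in these 4 comparisons and 3 on day 20 and 2 on day 3 in CD25high CD127low over CD127-positive CD25-negative cells. Fewer cells rich in the members and fewer members over 50 CPM come with these cell choices by construction. The counts show which calls depend on a setting. Where no all-gene share is given for a setting, they are no result about the members.

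The share of cells with a UMI of any member, 26.6% at 1000 UMIs, was 33.8% at 1500, 45.1% unthinned and 24.0% without cluster 10. That with at least 3 members, 3.18%, was 4.77% at 1500 UMIs, 8.36% unthinned, 1.15% without cluster 10, 8.03% for at least 2 members and 2.26% without IFI27. The median pair correlation, 0.09, was 0.11 at 1500 UMIs, 0.17 unthinned and 0.02 without cluster 10. Of the values of single members under these settings, 142 moved beyond their counting interval and 1154 did not. Of the values by comparison, 30 moved, 2 reversed and 127 stayed the same. No called member changed direction. No paired analysis was possible because the labels give no replicate numbers to pair within a sort and day. A fit of day with sorts as blocks, which would take different sorts as replicates, was not made. The planned search of promoter motifs was not run, since no promoter sequences were used here. Low counts limit what can be said of LY6E (99 UMIs), and why it was so low was not tested. Depth limits the CFSE-positive library of day 20, the smallest at 2992787 UMIs.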
